A study of Mus musculus with 12 samples.

Results

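The 40 genes described here encode the core machinery of autophagy and the receptors that bring cargo to it, measured by RNA-seq in the piriform cortex of a mouse model of Huntington's disease. They are the genes whose symbols are on a list of 40, chosen with earlier results of these data known. All 40 were found in the count table, which has 48795 genes. All 40 also passed the filter on low counts that left 17725 genes to test, and the lowest count of any of them in any library was 94 reads. The knock-in animals, called Q140 here, were 6 mice heterozygous for the Q140 knock-in allele, in which the mouse Htt gene carries an expanded CAG repeat. They were set against 6 wild-type mice, called WT. Each genotype had 3 females and 3 males, and all 12 mice were 12 months old and on a C57BL/6 background. The knock-in puts the expanded repeat under the gene's own promoter in every cell that expresses Htt, and the samples are whole dissected tissue, so each value is an average over all cell types. In such samples, fewer cells of a type and less RNA per cell cannot be told apart.

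Autophagy encloses cytoplasm in a double membrane, the autophagosome, and delivers it to the lysosome for breakdown. A kinase complex starts the process, a lipid kinase marks the membrane with phosphatidylinositol 3-phosphate, and a ubiquitin-like conjugation system attaches proteins of the LC3 and GABARAP family to the growing membrane. Cargo receptors bind ubiquitinated cargo and LC3 or GABARAP at once. The pathway has long been studied in Huntington's disease because huntingtin aggregates carry ubiquitin and the receptor p62, and because huntingtin itself has been tied to cargo loading.

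The LC3 and GABARAP proteins are made as precursors, which Atg4 proteases cut after a glycine near the carboxyl end. The ends of the 5 coding sequences are printed 5′ to 3′ from the GENCODE M21 annotation on GRCm38, because they show how close the paralogs are at the site that the proteases cut. Each run is the last 30 coding bases, stop codon included, and the capitals mark the codon of that last glycine.
Map1lc3a: tacgcctcccaagaaaccttcGGCttctga
Map1lc3b: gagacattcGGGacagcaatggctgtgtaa
Gabarap: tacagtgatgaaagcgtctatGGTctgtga
Gabarapl1: tacagtgatgaaagtgtctatGGAaaatga
Gabarapl2: tacagcggagagaacacttttGGCttctga
In Map1lc3b the glycine is codon 120 and 5 codons follow it, while in the other four genes 1 codon follows. Over the whole coding sequence Gabarap and Gabarapl1 were 74.9% identical and Map1lc3a and Map1lc3b 74.7%, against 50.6% to 55.2% between an LC3 and a GABARAP gene. No stretch of 50 bases in the Gabarap or Map1lc3a transcripts occurs in a transcript of another gene. In Gabarapl1 23.1% of such stretches, in Gabarapl2 12.2% and in Map1lc3b 6.01% also occur in other genes, on either strand. The counts of these genes are therefore less certain.

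**Figure D1:**
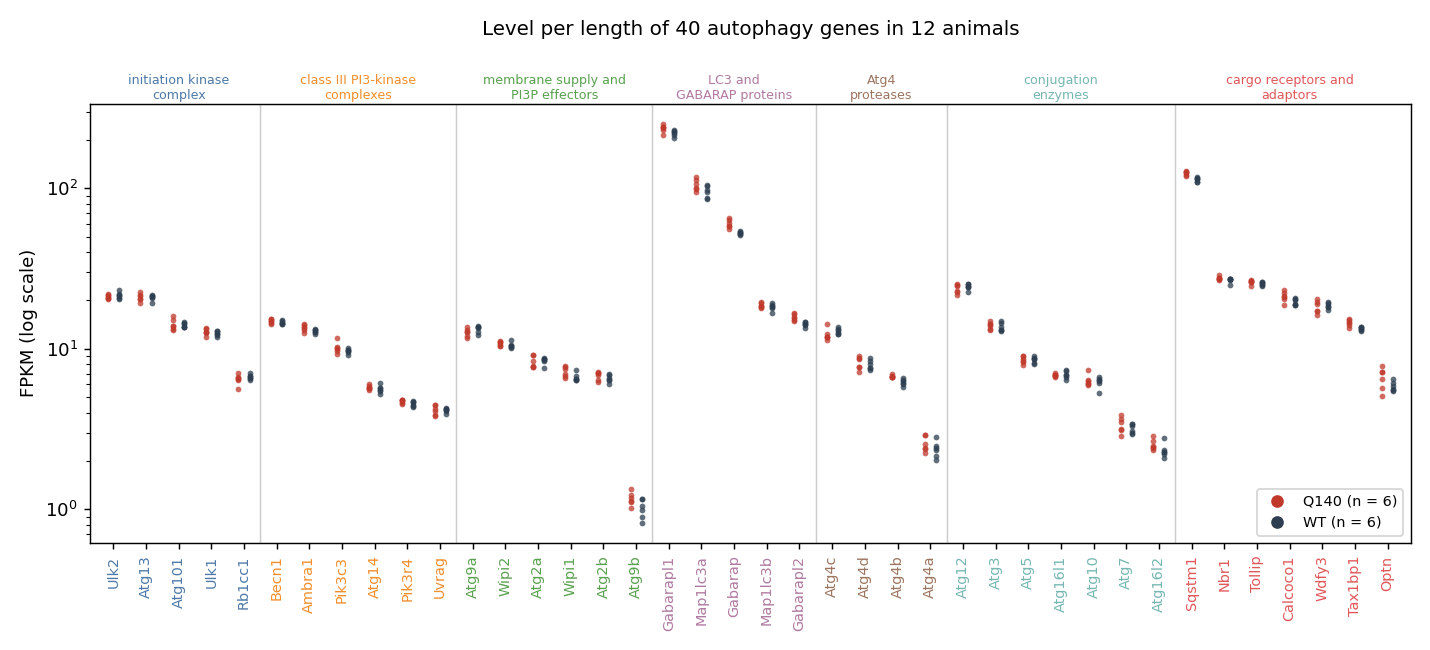
FPKM (log scale) of each of the 40 genes in each animal, Q140 left of WT, with the genes grouped by role and ordered by mean level. The levels run from 237 ± 12.8 FPKM (Gabarapl1) to 1.17 ± 0.105 FPKM (Atg9b) in Q140 animals, and the points of the genotypes lie close together for every gene.

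Transcript levels of the machinery in Q140 cortex lay close to those in WT cortex. In the genotype fit, edgeR's quasi-likelihood test over all 17725 genes with sex as covariate, 1 of the 40 genes was called higher in Q140 (2.5%) at an adjusted p below 0.05. That gene was Gabarap. Over all genes tested 4.5% were called higher, and 11.2% in either direction. None of the 40 genes was called lower by edgeR, DESeq2, limma voom or limma on log2 FPKM, against 6.69% of all genes called lower by edgeR, and 39 genes did not pass. At an unadjusted p below 0.05 there were 5 of 40, with Gabarap, Gabarapl2 and Sqstm1 higher and Atg9a and Atg4c lower, while 26.7% of all genes reached that level. Log2 fold changes, Q140 over WT, were positive in 18 genes and negative in 22, with a median of -0.01 against 0.0045 for all genes tested. The split of signs varied over 25 alternative analyses, with 17 to 30 genes positive. The highest number came with library totals alone, where 30 were positive and 10 negative, with a median of 0.04 against 0.051 for all genes. In the edgeR fit the log2 fold changes of the 40 ran from -0.13 (Atg4c) to 0.16 (Atg9b). Their median size was 0.059, against 0.105 over all genes, which were not matched for level.

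The animals varied little, so the differences were bounded closely. The coefficient of variation of CPM, the reads of a gene per 1000000 reads after TMM scaling of the library, had a median over the 40 genes of 5.92% in Q140 and 4.48% in WT animals, against 9.84% and 9.15% over all genes tested. All genes tested were not matched to the 40 for level in this comparison. The 95% interval of the genotype difference lay within ±20% for 38 of the 40 genes and within ±10% for 15. The lowest bound was 15.5% below WT (Atg4c, -15.5%) and the highest was 29.6% above it (Atg9b, the gene with the lowest level per length). No gene had genotypes that did not overlap, whereas among all genes tested 1.88% had every Q140 animal above every WT animal and 2.7% every one below.

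**Figure D2:**
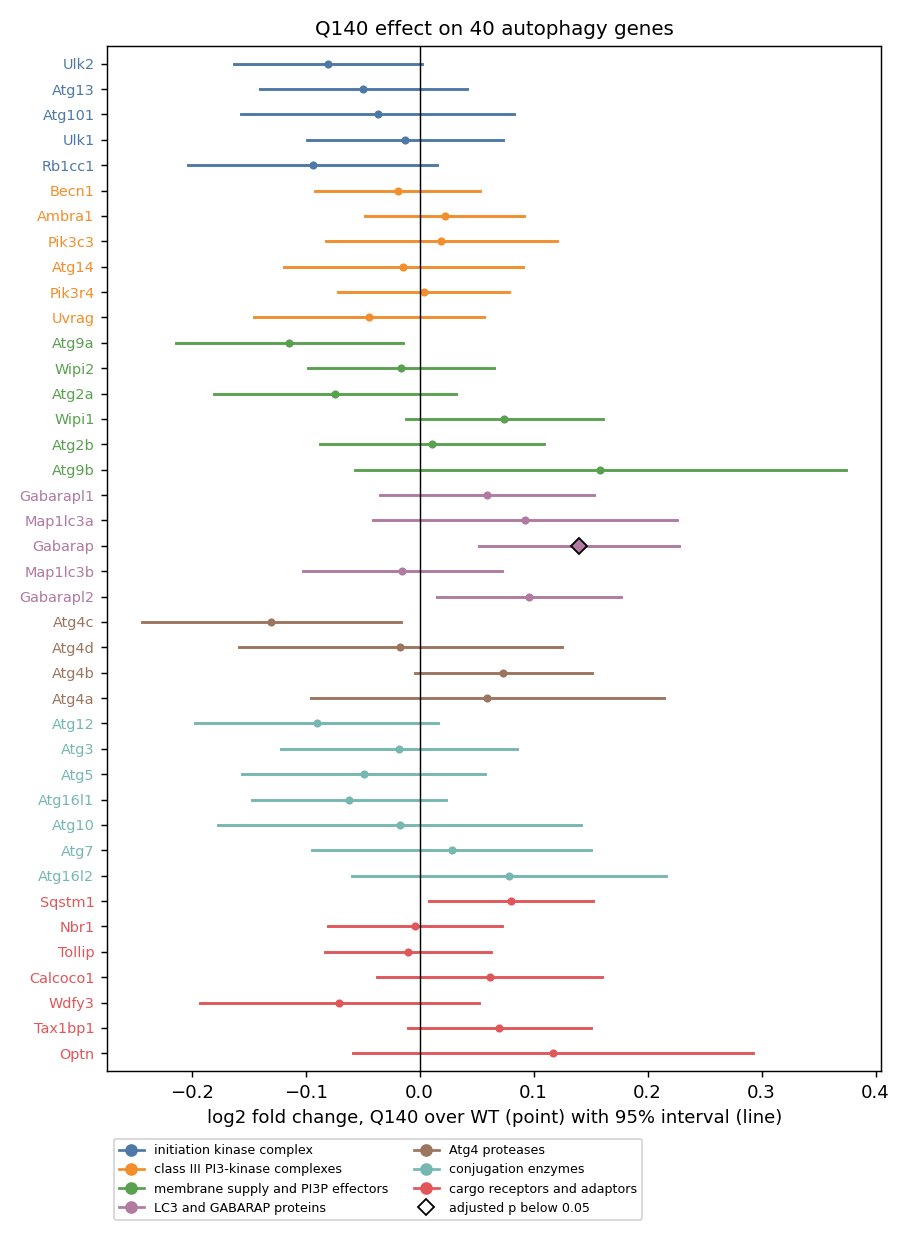
Log2 fold change of each gene, Q140 over WT (points), with its 95% interval (lines), coloured by role; the diamond marks an adjusted p below 0.05 by edgeR. The points lie between -0.13 and 0.16, Gabarap is the gene marked, and 5 intervals exclude 0.

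Gabarap, which encodes the founding member of the GABARAP branch, was the only member called higher in the edgeR genotype fit. It lies on the plus strand of chr11:69991143-69994951 (GRCm38) and shares no exonic base with another annotated gene. It had 107.5, 107.3, 112.8, 111.4, 100.1 and 117.6 CPM in Q140 animals, against 98.5, 98.0, 100.7, 101.3, 95.2 and 102.3 CPM in WT animals. Thus 5 of the 6 Q140 animals lay above every WT animal, and the remaining animal, at 100.1 CPM, lay inside the WT range. For this gene and those below, how many of all genes tested have 5 of 6 Q140 animals beyond every WT animal was not counted. The log2 fold change was 0.14 ± 0.041 (SE; adjusted p = 0.042, edgeR), or 3.66% to 17.1% above WT by its 95% interval. In the same order of genotypes, the ranges were 107 to 111 and 98.0 to 102 CPM in females and 100 to 118 and 95.2 to 101 CPM in males. Within plate column 8 the 4 Q140 animals had 107 to 113 CPM and the 3 WT animals 98.0 to 101 CPM. Within plate column 9 the 2 Q140 animals had 100 to 118 CPM and the 3 WT animals 95.2 to 102 CPM. The letters opening the animal names, which the labels do not explain, were unevenly split between genotypes. With RFQ the 3 Q140 animals had 100 to 118 CPM and the 1 WT animal 101 CPM. With RFckQ the 1 Q140 animal had 111 CPM and the 4 WT animals 95.2 to 101 CPM. The 2 animals without letters were Q140 and the 1 FMQ animal was WT, so letters and genotype are partly confounded.

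The direction for Gabarap held in all 25 alternative analyses, with log2 fold changes of 0.11 to 0.19, but its adjusted p, between 0.0099 and 0.349, was below 0.05 in 11 of them. The call was lost when any one of Q140 animals 1, 2, 3, 4 and 6 or WT animals 1, 2, 3 and 5 was left out (adjusted p = 0.0601 to 0.0895, edgeR). It was also lost with plate column (0.0626), the letters opening the animal names (0.349), the mean of the oligodendrocyte marker list (0.251) or length and GC offsets (0.0741) in the edgeR fit, and with no low-count filter (0.052), each given as adjusted p.

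Gabarapl2, also known as GATE-16, had 34.6, 35.8 and 37.7 CPM in Q140 animals (lowest, median and highest) and 32.3, 33.8 and 34.9 CPM in WT animals. Again 5 of 6 Q140 animals exceeded every WT animal, and the log2 fold change was 0.10 ± 0.038 (SE; adjusted p = 0.119, edgeR), which passed in 3 of 25 alternatives. Gabarapl1, the most abundant of the 40 genes per length at 237 ± 12.8 FPKM in Q140 and 220 ± 9.73 FPKM in WT animals (SD, n = 6 each), had 433, 469 and 507 CPM in Q140 and 415, 456 and 480 CPM in WT animals. The ranges overlapped widely, with a log2 fold change of 0.06 (adjusted p = 0.421, edgeR). Of its exonic bases 28.3% are shared with a gene on the opposite strand, and its value is less certain for that reason, since the strand setting of the counting is not given here.

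Map1lc3a, one of the LC3 genes, had 113, 122 and 135 CPM in Q140 animals and 102, 116 and 128 CPM in WT animals. Its log2 fold change was 0.09 (adjusted p = 0.368, edgeR), with 2 Q140 animals above every WT animal. Map1lc3b, the gene of the LC3B protein that is commonly followed as an autophagosome marker, had 130, 139 and 145 CPM in Q140 animals and 130, 141 and 148 CPM in WT animals. The ranges of Map1lc3b coincided almost fully, its log2 fold change was -0.01 (adjusted p = 0.856, edgeR), and the sign changed in 6 of 25 alternatives. Of the family of 5, then, 1 was called higher and 4 did not pass, and the fitted differences of 4 were positive, or of all 5 in 6 of the 25 alternatives (library totals alone, log2 FPKM at either pseudocount, length and GC offsets, and without Q140 animal 5 or WT animal 1).

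**Figure D3:**
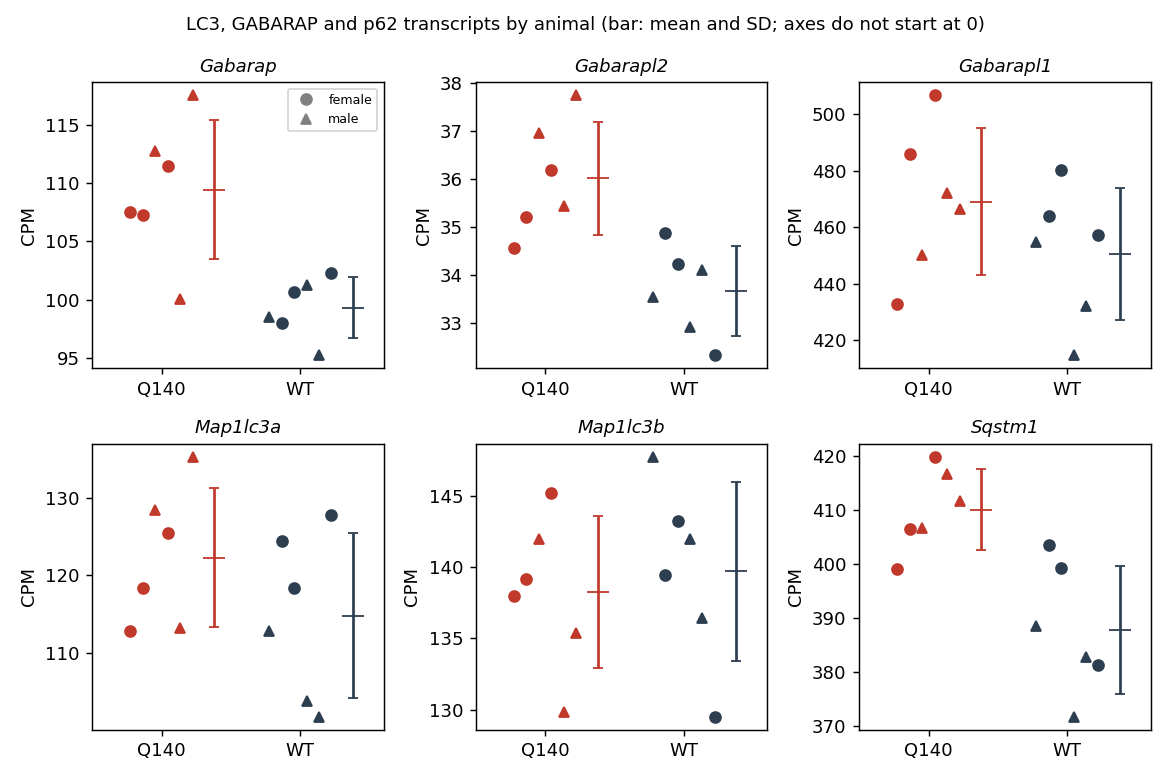
CPM of the 5 LC3 and GABARAP genes and of Sqstm1 in each animal (circles, females; triangles, males), with mean and SD beside the points and axes that do not start at 0. For Gabarap, Gabarapl2 and Sqstm1 5 of 6 Q140 animals lie above every WT animal, and for the other genes shown the genotypes overlap more. The share of all genes tested with such a separation was not counted.

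The initiation kinase complex did not differ between genotypes at the threshold in any of its 5 genes. Ulk2, one of the paired kinases that start autophagy, had 117, 125 and 130 CPM in Q140 animals and 123, 131 and 143 CPM in WT animals, and 2 Q140 animals lay below every WT animal. Its log2 fold change was -0.08 ± 0.038 (SE; adjusted p = 0.2, edgeR), the smallest p of the complex. Ulk1, the other kinase, had 81.4 ± 3.21 CPM in Q140 and 82.1 ± 3.65 CPM in WT animals. The scaffold gene Atg13 had 89.8 ± 4.25 CPM in Q140 and 92.9 ± 4.14 CPM in WT animals. Its partner Atg101 had 17.2 ± 1.38 and 17.6 ± 0.682 CPM in the same order. Rb1cc1, the gene of the large scaffold FIP200, had 80.3 to 101 CPM in Q140 and 95.1 to 105 CPM in WT animals, and the lowest value came from male Q140 animal 3. All 5 fitted differences of the complex were negative, with a median of -0.05 and none called. Over the 25 alternatives 3 to 5 of them were negative: 3 with library totals alone, log2 FPKM at either pseudocount or name letters as covariate, and 4 with the oligodendrocyte list mean, length and GC offsets, or without Q140 animal 4 or WT animal 6.

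Of the 7 roles, the class III PI3-kinase genes had the smallest median size of log2 fold change in the edgeR fit, 0.019. Their 6 log2 fold changes lay between -0.04 and 0.02, with 3 positive and 3 negative, and 2 to 6 positive over the 25 alternatives. Uvrag, which directs the kinase to endosomes, had the smallest p among them, with 34.5, 36.3 and 40.4 CPM in Q140 and 36.6, 38.2 and 39.8 CPM in WT animals. The WT range of Uvrag lay inside the Q140 range, and its log2 fold change was -0.04 (adjusted p = 0.589, edgeR). Antisense genes cover 17.6% of the Uvrag exonic bases. Becn1, the gene of the regulatory subunit Beclin 1, had 104 ± 2.86 CPM in Q140 and 105 ± 3.45 CPM in WT animals, although 43.9% of its exonic bases are shared with Cntd1 on the opposite strand. Pik3c3, the lipid kinase itself, had 44.7 ± 3.28 CPM in Q140 and 44.1 ± 1.1 CPM in WT animals. Pik3r4, its regulatory subunit, was among the most even of all members, with 43.7 to 46.1 CPM in Q140 and 42.2 to 46.1 CPM in WT animals. Atg14, which directs the kinase to forming autophagosomes, had 19.6 ± 0.749 CPM in Q140 and 19.8 ± 1.04 CPM in WT animals. Ambra1, a Beclin 1 partner, had 81.5 ± 2.57 and 80.3 ± 1.55 CPM in the same order.

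Among the genes that supply membrane and read phosphatidylinositol 3-phosphate, none of 6 passed. Atg9a, which encodes the lipid scramblase carried on small vesicles, had 64.7, 72.2 and 76.8 CPM in Q140 animals and 71.2, 78.8 and 81.2 CPM in WT animals. Every Q140 animal lay below the WT mean but only 2 lay below every WT animal, and the log2 fold change was -0.11 ± 0.047 (SE; adjusted p = 0.133, edgeR). A noncoding gene on the same strand shares 31.8% of the Atg9a exonic bases, so its count may hold reads of both or lack shared ones. Its paralog Atg9b had the lowest level per length of the 40, at 1.17 ± 0.105 FPKM in Q140 and 1.01 ± 0.138 FPKM in WT animals. In CPM Atg9b had 3.91, 4.54 and 5.08 in Q140 animals and 3.27, 4.10 and 4.70 in WT animals, and its log2 fold change was 0.16 (SE 0.10; adjusted p = 0.339, edgeR). The lipid-transfer genes Atg2a and Atg2b had 63.0 ± 4.28 and 68.3 ± 4.73 CPM in Q140 animals and 66.1 ± 3.62 and 67.8 ± 3.87 CPM in WT animals. Of the genes whose proteins bind the lipid, Wipi1 had 31.4 ± 1.74 CPM in Q140 and 29.8 ± 1.48 CPM in WT animals, and Wipi2 had 110 to 115 CPM in Q140 and 108 to 124 CPM in WT animals.

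The Atg4 proteases prepare LC3 and GABARAP for conjugation and later release them, and none of the 4 genes passed. Atg4c had 37.98, 39.1 and 46.5 CPM in Q140 animals and 42.1, 43.9 and 46.4 CPM in WT animals. Of the Q140 animals 5 of 6 lay below every WT animal, while Q140 animal 5, a male, was the highest of all 12. The log2 fold change of Atg4c was -0.13 ± 0.053 (SE; adjusted p = 0.133, edgeR), and without that animal it was -0.18 (adjusted p = 0.0133), the only one of 25 alternatives in which it passed; its adjusted p over all of them ran from 0.0133 to 0.584. Atg4b had 53.6 to 56.2 CPM in Q140 and 48.3 to 55.7 CPM in WT animals, with all 6 Q140 animals above the WT mean, and it did not pass (adjusted p = 0.214, edgeR). Atg4d had 20.4 ± 1.80 CPM in Q140 and 20.6 ± 1.32 CPM in WT animals, and 19.3% of its exonic bases are shared with Kri1 on the opposite strand. Atg4a had 5.98, 6.49 and 7.50 CPM in Q140 and 5.61, 6.43 and 7.57 CPM in WT animals, with a log2 fold change of 0.06 (adjusted p = 0.647, edgeR), and 51.2% of its 50-base stretches also occur in the pseudogene Atg4a-ps.

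The conjugation enzymes attach Atg12 to Atg5 and LC3 to lipid, and none of the 7 genes passed. Atg12, the ubiquitin-like modifier, had the smallest p, with 52.3, 58.2 and 63.4 CPM in Q140 and 56.9, 62.7 and 63.8 CPM in WT animals. Here 2 Q140 animals lay below the WT range and the log2 fold change was -0.09 ± 0.050 (SE; adjusted p = 0.269, edgeR). The E1-like enzyme Atg7 had 20.0 to 26.1 CPM in Q140 and 21.2 to 23.9 CPM in WT animals, a wider range in Q140 that enclosed the WT one. The E2-like enzymes Atg3 and Atg10 had 43.3 ± 2.73 and 10.1 ± 0.793 CPM in Q140 animals and 43.9 ± 2.46 and 10.2 ± 0.812 CPM in WT animals. Atg5, the acceptor of Atg12, had 19.8 ± 1.13 CPM in Q140 and 20.5 ± 0.908 CPM in WT animals. The scaffold Atg16l1 had 65.0 ± 1.42 and 67.9 ± 3.55 CPM, and its paralog Atg16l2 had 21.2 ± 1.80 and 20.1 ± 2.22 CPM, in the same order of genotypes.

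Several of these enzymes carry the 6 bases CACGTG in a RefSeq promoter. These bases are the core of the element that TFEB, a transcription factor of lysosome and autophagy genes, is known to bind. Promoters were taken from RefSeq on GRCm38.p6 as 250 bases before to 50 after the start, and 33 of the 40 genes had one. CACGTG, which reads the same on both strands, was present in 4 of the 33 (12.1%), against 2187 of 27025 genes (8.09%). In GENCODE M21 Atg7 begins further upstream, at chr6:114643097 on the plus strand. Atg14 likewise begins at chr14:47570649 on the minus strand. The matches of Atg7 and Atg14 therefore lie inside these genes and not at their outermost annotated start. The stretches around the match are shown on the gene's strand with the motif in capitals, to show the match in each of the 4 genes.
Atg7, chr6:114670954-114670979, plus strand: tattggtggtCACGTGtgcagtaagt
Atg5, chr10:44268315-44268340, plus strand: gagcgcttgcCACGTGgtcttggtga
Atg14, chr14:47568420-47568445, minus strand: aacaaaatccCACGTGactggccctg
Atg3, chr16:45158725-45158750, plus strand: ctccttttgtCACGTGtcctgggaga
Atg3 has a further match at chr16:45158748-45158773. None of the 4 genes was called in any comparison, and Tfeb itself had 8.39, 9.71 and 11.7 CPM in Q140 animals and 6.36, 7.76 and 9.38 CPM in WT animals, which did not pass (log2 fold change 0.33, adjusted p = 0.0613, edgeR). Over the 25 alternatives its log2 fold change was 0.15 to 0.39, and it passed in 10 of them.

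Among the cargo receptors and adaptors none of 7 passed. Sqstm1, the gene of p62, which is itself degraded with its cargo, had 399, 409 and 420 CPM in Q140 animals and 372, 386 and 403 CPM in WT animals. Of the 6 Q140 animals 5 lay above every WT animal, and the log2 fold change was 0.08 ± 0.034 (SE; adjusted p = 0.142, edgeR). Sqstm1 passed in 4 of 25 alternatives, and 17.3% of its exonic bases are shared with Mrnip on the opposite strand. Optn, the gene of optineurin, varied more, with 19.2, 25.1 and 28.6 CPM in Q140 animals and 20.6, 21.8 and 25.0 CPM in WT animals. The Q140 range of Optn extended beyond the WT range on both sides, and the log2 fold change was 0.12 ± 0.082 (SE; adjusted p = 0.388, edgeR).

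Wdfy3, the gene of the adaptor Alfy, which is known to act in the removal of aggregated proteins, had 242, 278 and 314 CPM in Q140 animals and 268, 293 and 304 CPM in WT animals. Its WT range lay inside the Q140 range, and its log2 fold change was -0.07 (SE 0.057; adjusted p = 0.466, edgeR). Tollip, which binds ubiquitin and LC3, had 124, 129 and 135 CPM in Q140 and 125, 132 and 134 CPM in WT animals, and its log2 fold change of -0.01 (adjusted p = 0.888, edgeR) changed sign in 6 of 25 alternatives. Tax1bp1, another ubiquitin-binding receptor, had 130, 143 and 152 CPM in Q140 and 134, 135 and 139 CPM in WT animals, and its log2 fold change was 0.07 (SE 0.038; adjusted p = 0.255, edgeR). Nbr1, a receptor that acts with p62, had 187 ± 7.23 CPM in Q140 and 187 ± 5.10 CPM in WT animals. Calcoco1, a relative of Tax1bp1, had 82.7 ± 4.80 and 79.2 ± 3.54 CPM in the same order.

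**Figure D4:**
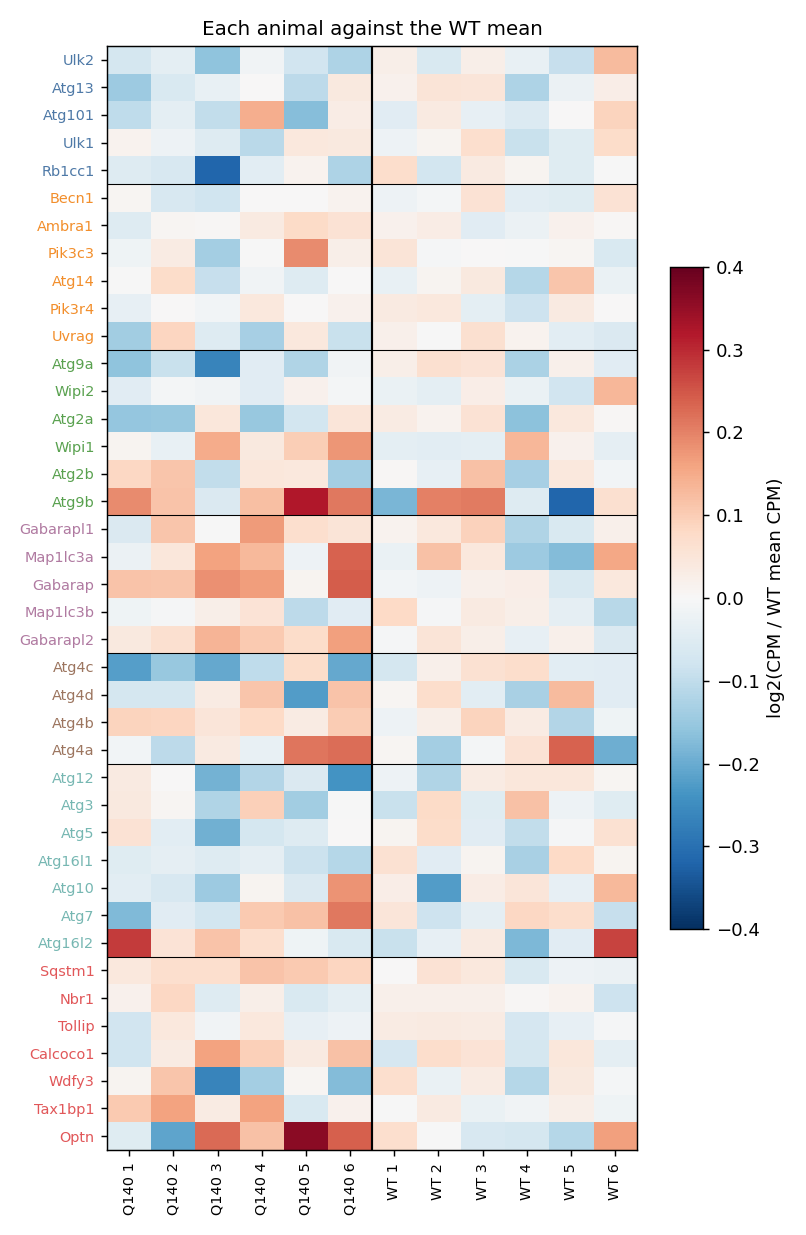
Log2 ratio of each animal's CPM to the WT mean for the 40 genes (rows, grouped by role) in 6 Q140 and 6 WT animals (columns). Gabarap, Gabarapl2, Sqstm1 and Atg4b are above the WT mean in all 6 Q140 animals, and Ulk2, Atg9a and Atg16l1 below it in all 6. The share of all genes tested that do so was not counted.

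Seen by animal, no Q140 mouse had the whole set on one side of the WT mean. Of the 40 genes, between 15 and 25 were below the WT mean in a Q140 animal, and between 11 and 27 in a WT animal. Of the 40 genes, Gabarap, Gabarapl2, Sqstm1 and Atg4b were above the WT mean in all 6 Q140 animals, and Ulk2, Atg9a and Atg16l1 were above it in none. How many of all genes tested lie on one side of the WT mean in all 6 Q140 animals was not counted. Both Rb1cc1 and Wdfy3, genes of very large proteins, had their lowest value in Q140 animal 3, at 80.3 and 242 CPM.

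The make-up of each paralog family was similar in both genotypes when each gene was taken as a share of the family's summed FPKM. Gabarapl1 made up 54.2 ± 1.83% of the LC3 and GABARAP transcripts in Q140 and 54.9 ± 0.874% in WT animals (SD, n = 6 each). Map1lc3a made up 24.1 ± 1.2% and 23.8 ± 1.24%, and Gabarap 13.8 ± 0.635% and 13.2 ± 0.635%, in the same order. Per length Map1lc3b was a minor part of the family, at 4.28 ± 0.184% in Q140 and 4.57 ± 0.316% in WT animals. Gabarapl2 had 3.61 ± 0.115% and 3.56 ± 0.183%. The length counted for Map1lc3b was 7517 bases, against 1181 for Map1lc3a and 1844 for Gabarap. In reads Map1lc3b, at 138 CPM in Q140 and 140 in WT animals (means), exceeded Map1lc3a (122 and 115) and Gabarap (109 and 99.3). Atg9a held 91.6 ± 0.580% of the Atg9 pair in Q140 and 92.9 ± 0.907% in WT animals. Among the proteases Atg4c was the largest share per length, at 41.2 ± 2.65% in Q140 and 43.9 ± 1.31% in WT animals. Atg4b had 22.8 ± 0.849% and 21.04 ± 0.940%. The lengths counted were 3351 bases for Atg4c and 8278 for Atg4b. In reads Atg4b was higher, at 55.1 and 52.3 CPM (means, Q140 and WT), against 40.4 and 44.2 CPM for Atg4c. Shares are descriptions per length and were not tested.

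**Figure D5:**
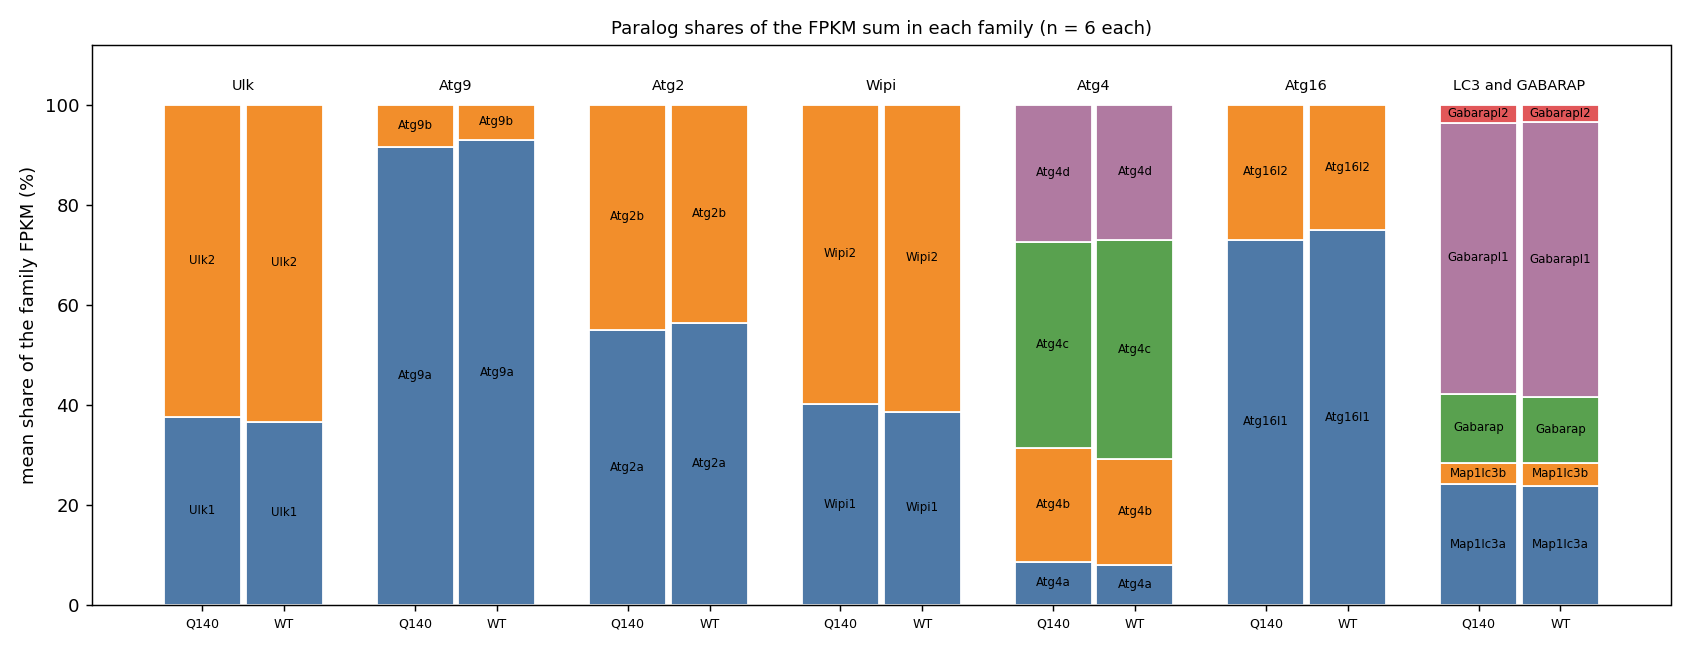
Mean share (percent) of each paralog in the summed FPKM of its family, Q140 left of WT in each of 7 families, 6 animals per bar. Atg9a, Atg16l1 and Gabarapl1 hold most of their families in both genotypes, and the bars of the genotypes are nearly alike.

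Within each sex edgeR called none of the 40 genes. In the 3 Q140 against 3 WT females there was no edgeR call among the 40, against 2.83% of all genes higher, 4.21% lower and 7.05% in either direction. At an unadjusted p below 0.05 there were 3 of the 40, against 4202 of all 17725 genes. DESeq2 called 1 of the 40 and limma voom 2, and their calls over all genes within a sex are not given here. Tax1bp1 had the smallest p there, at 146, 152 and 152 CPM in Q140 females and 139, 134 and 134 CPM in WT females. All 3 Q140 females lay above the WT females (log2 fold change 0.14 ± 0.045 SE; adjusted p = 0.072, edgeR). In the 3 Q140 against 3 WT males edgeR again called none, against 0.44% of all genes higher, 0.959% lower and 1.4% in either direction. Here 8 of the 40 were at an unadjusted p below 0.05, against 2940 of all 17725 genes. DESeq2 called 1 of the 40 and limma voom 2. Map1lc3a led there, at 128, 113 and 135 CPM in Q140 males and 113, 104 and 102 CPM in WT males. The 3 Q140 males lay above the WT males by as little as the gap between 113.3 and 112.8 CPM (log2 fold change 0.24 ± 0.070 SE; adjusted p = 0.107, edgeR).

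The test of the difference between the sexes called 0% of all genes by edgeR, and none of the 40 by edgeR, DESeq2 or limma voom. At an unadjusted p below 0.05 there were 4 of the 40, against 1633 of all 17725 genes (edgeR). Optn had the smallest p of the 40 and, like Tax1bp1 in females and Map1lc3a in males, was picked for that. How many of all genes separate 3 against 3 animals within a sex was not counted. Optn had 26.1, 28.6 and 26.3 CPM in Q140 males and 23.3, 21.2 and 20.6 CPM in WT males. In females it had 21.5, 19.2 and 24.2 CPM in Q140 and 22.3, 21.3 and 25.0 CPM in WT. Optn was thus higher in every Q140 male than in any WT male and overlapped in females, and the effect in males minus that in females was 0.39 ± 0.13 (SE, log2; adjusted p = 0.471, edgeR). Between males and females at equal genotype, none of the 40 was called by these 3 tools (0.654% of all genes by edgeR, with 0.197% higher and 0.457% lower in males). Here 4 of the 40 were at an unadjusted p below 0.05, against 2387 of all 17725 genes (edgeR). The X-linked Atg4a had the smallest p, and its log2 fold change, males over females, was 0.21 (SE 0.072; adjusted p = 0.23, edgeR).

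The genes that act around this machinery are given by list, against 4.5% of all genes tested called higher by edgeR, 6.69% lower and 11.2% in either direction. These lists too were chosen with earlier results of these data known. Of 15 other autophagosome formation genes tested, edgeR called none, with 1 at an unadjusted p below 0.05 (Ulk3, adjusted p = 0.0971). Of 21 genes of autophagosome transport and fusion 1 was called higher, Fyco1, which links autophagosomes to kinesin, at 85.7, 88.1 and 104 CPM in Q140 and 77.6, 79.3 and 91.6 CPM in WT animals (log2 fold change 0.16 ± 0.047 SE; adjusted p = 0.0435, edgeR, passing in 12 of 25 alternatives). The medians of these lists were 0.003 and -0.002 on the log2 scale.

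Of 29 genes of nutrient and energy signalling 3 were called lower and none higher (10.3%, against 11.2% of all genes). Rragd, a Rag GTPase of the lysosomal mTORC1 platform, had 137, 157 and 173 CPM in Q140 animals and 176, 198 and 216 CPM in WT animals. Every Q140 animal lay below every WT animal, and the log2 fold change was -0.36 ± 0.059 (SE; adjusted p = 0.00217, edgeR, passing in 24 of 25 alternatives). Prkaa2, the gene of a catalytic subunit of the energy sensor AMPK, fell by 0.20 on the log2 scale (adjusted p = 0.0316, edgeR, 14 of 25). Sesn1, the gene of a sestrin that senses leucine for mTORC1, fell by 0.16 (adjusted p = 0.0185, edgeR, 20 of 25). Mtor itself had 135 to 151 CPM in Q140 and 136 to 154 CPM in WT animals and did not pass. The list's median was -0.03 on the log2 scale.

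Of 16 transcriptional regulators tested 2 were called higher and none lower (12.5%, against 11.2% of all genes). Foxo4, a forkhead factor, had 19.2, 23.3 and 26.1 CPM in Q140 and 17.6, 18.8 and 20.7 CPM in WT animals (log2 fold change 0.28 ± 0.065 SE; adjusted p = 0.0141, edgeR, 23 of 25 alternatives). Nfe2l2, the gene of NRF2, which is known to activate Sqstm1, had 20.2, 23.6 and 26.7 CPM in Q140 and 15.7, 17.02 and 24.4 CPM in WT animals (0.38 ± 0.10 SE; adjusted p = 0.0297, edgeR, 13 of 25 alternatives). Of 20 receptors of mitophagy and ER-phagy 2 were called higher and 1 lower (15%, against 11.2% of all genes). Pink1, the kinase that marks damaged mitochondria, had 346, 363 and 406 CPM in Q140 and 311, 330 and 338 CPM in WT animals, with no overlap (0.17; adjusted p = 0.0216, edgeR, 22 of 25 alternatives). Retreg1, an ER-phagy receptor, was higher by 0.22 (adjusted p = 0.0374, edgeR, 16 of 25), and Bnip3, a mitochondrial receptor, was lower by a log2 fold change of -0.21 (adjusted p = 0.028, edgeR, 13 of 25). The medians of the regulator and receptor lists were -0.001 and 0.03 on the log2 scale.

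These 9 neighbouring calls held their direction and varied in strength. With the letters opening the animal names, which are partly confounded with genotype, as covariate none of the 9 passed (adjusted p = 0.0821 to 0.627, edgeR). Their log2 fold changes were then 0.17 for Nfe2l2, -0.10 for Bnip3, -0.28 for Rragd, 0.13 for Fyco1, 0.16 for Retreg1, -0.19 for Prkaa2, 0.28 for Foxo4, 0.21 for Pink1 and -0.21 for Sesn1, so those of Nfe2l2 and Bnip3 were smaller by over 1.5 times. With the oligodendrocyte list mean as covariate Rragd and Sesn1 passed. With library totals alone Prkaa2, Sesn1 and Bnip3, all lower, did not pass (adjusted p = 0.0787, 0.0666 and 0.0671, edgeR). On log2 FPKM at either pseudocount the same genes did not pass (0.0800 to 0.119, limma). Rragd, also lower, and the higher calls passed in these settings. Prkaa2 was also lost with length and GC offsets (0.0595, edgeR) and Nfe2l2 with plate column (0.0527, edgeR). Leaving out no single animal ended the calls of Rragd and Foxo4. The call of Pink1 was lost without WT animal 1 (adjusted p = 0.0568, edgeR) and that of Sesn1 without WT animal 3 (0.0502). That of Prkaa2 was lost without Q140 animal 1 or 3 or WT animal 1, 2 or 3 (0.0589 to 0.0706). That of Retreg1 was lost without Q140 animal 2, 3, 4 or 6 or WT animal 1, 3 or 5 (0.0533 to 0.0914). That of Bnip3 was lost without Q140 animal 1, 2 or 3 or WT animal 1, 2, 3 or 5 (0.0557 to 0.0712). That of Nfe2l2 was lost without Q140 animal 1, 2, 3 or 4 or WT animal 1, 2, 3, 5 or 6 (0.0548 to 0.0784). That of Fyco1 was lost without any one animal except Q140 animal 4 and WT animal 6 (0.0592 to 0.0951).

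The libraries held 19587208 to 35198602 counted reads in Q140 and 24068582 to 33191541 in WT animals. Htt was lower in the knock-in animals, at 151 ± 8.19 CPM in Q140 and 196 ± 8.15 CPM in WT (log2 fold change -0.37, passing in 25 of 25 alternatives), and gene-level counts cannot separate its alleles. The tissue expressed markers of cortical excitatory neurons, such as Slc17a7 at 232 to 307 FPKM in Q140 and 316 to 354 FPKM in WT animals. The summed excitatory list of 6 markers had 4858 to 5357 CPM in Q140 and 5757 to 7695 CPM in WT animals, without overlap. Of its markers 2 of 6 were called lower, against 6.69% of all genes tested. All 6 had negative fitted differences, with a median log2 fold change of -0.289. The oligodendrocyte list of 12 markers had 4152 to 5933 CPM in Q140 and 3643 to 5167 CPM in WT animals. Of these markers 4 were called higher, against 4.5% of all genes tested. Their fitted differences were positive in 11 and negative in 1, with a median log2 fold change of 0.178. The lists of astrocytes, endothelium and meninges had no marker called. The microglial list had 1 called higher (Tmem119) and the inhibitory list 1 called lower (Sst). Fitted differences were positive in 6 of 6 endothelial, 5 of 6 microglial, 4 of 6 astrocyte and 3 of 6 inhibitory markers. No listed marker was at 0 in any list. The summed meningeal list varied widely, from 908 to 2288 CPM in Q140 and from 127 to 1855 CPM in WT animals. All 6 of its markers had positive fitted differences, with a median log2 fold change of 0.47. The part of these cell type markers in the Gabarap result and in the neighbouring genes was not tested beyond the oligodendrocyte covariate. TMM scaling factors were 1.02 ± 0.0177 in Q140 and 0.984 ± 0.0110 in WT animals (exact permutation test, two-sided p = 0.00216, the smallest possible). With library totals alone the median log2 fold change of all genes tested was 0.051.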

How the data were processed

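The authors deposited whole-number counts of reads per gene and animal, and FPKM values made from them. Per the labels' protocols, RNA came from a Qiagen RNeasy kit and a stranded Illumina TruSeq preparation. Builds GRCm38 and mm10 are listed in the submitters' processing notes, with the tools STAR 2.7.5c, SAMtools 1.10 and HTSeq 0.12.3. Whether counting used strand, and with which annotation, is not given in the sources used here. FPKM was checked against the counts: the length they imply was constant across animals for 15054 genes (coefficient of variation at most 5.6e-09). GENCODE M21 held 48435 of the 48795 identifiers.

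Counts were fitted in R 4.3.3 with edgeR 4.0.16 (TMM, filterByExpr by genotype, quasi-likelihood test, two-sided), with genotype and sex as terms, and, for the sexes, as 4 genotype and sex groups. Adjusted p-values are Benjamini-Hochberg over 17725 genes, with a threshold of 0.05. CPM are reads per 1000000 of the TMM-scaled library. Levels of different genes are compared in FPKM, which has no composition correction. Alternatives used other size factors and filters, DESeq2 1.42.0, limma 3.58.1, other covariates and each animal left out. The steps were tested on simulated data. Members and gene lists were chosen with earlier results of these data known. Members given with their values in every animal, or with the lowest, median and highest, are those past the threshold, the smallest p of each role, sex and interaction comparison, the LC3 and GABARAP genes, receptors tied to huntingtin aggregates, and the highest and lowest level; Rb1cc1, Atg4b and Atg7 were singled out after their values were seen. Listed genes absent by symbol were matched by older symbols, such as Retreg1, Retreg2 and Retreg3 as Fam134b, Fam134a and Fam134c. Becn2 was not matched and Tfec did not pass the filter.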

Additional observations from a re-analysis of the deposited data

Results flagged for a closer look

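In 80 groups, the 40 genes in each genotype, the highest or lowest animal was set against the other 5 by Dixon's ratio of gap to range, which chance exceeds in about 1 in 20 groups. It picked out 3, all among WT animals. Atg2a was lowest in WT animal 4, a male, at 58.98 CPM, against 66.4 to 68.9 CPM in the other WT animals. Wipi1 was highest in the same animal, at 32.65 CPM, against 28.9 to 30.1 CPM. Nbr1 was lowest in WT animal 6, a female, at 176.7 CPM, against 187.6 to 189.7 CPM.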

How the results depend on the processing

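Of the 40 genes, 1 was called higher with edgeR. Of the alternatives, 4 were called higher with library totals alone (Atg4b, Gabarap, Gabarapl2 and Sqstm1), 3 with limma on log2 FPKM at a pseudocount of 0.1 or 1 (Gabarap, Gabarapl2 and Sqstm1) and 2 with DESeq2 (Gabarap and Sqstm1). The count was 0 with no low-count filter, and with plate column, name letters, the oligodendrocyte list mean or length and GC offsets, and 0 to 1 with one animal left out. Called lower was 0, and 0 to 1 with one animal left out (Atg4c, without Q140 animal 5). In females, 1 was called with library totals alone (Tax1bp1), 1 with DESeq2 (Tax1bp1), 2 with voom (Atg2a and Tax1bp1) and 0 to 1 with one animal left out (Atg2a, without WT animal 4). In males, 1 was called with library totals alone and 1 with DESeq2 (Map1lc3a), 2 with voom (Gabarap and Map1lc3a) and 0 to 2 with one animal left out (both, without Q140 animal 5). The counts for the sex difference and the interaction stayed at 0 in 20 alternatives each. The causes were not tested.

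Library totals alone moved the median log2 fold change of all genes to 0.051, and the calls over all genes to 1624 higher and 822 lower (66.4% higher), against 797 and 1185 (40.2% higher) with TMM. On log2 FPKM they were 1305 and 634 at a pseudocount of 0.1, and 1550 and 710 at 1. With name letters as covariate they were 33 and 101, and with the oligodendrocyte list mean 187 and 422. Map1lc3b turned positive with library totals (0.0319), log2 FPKM (0.0319 and 0.0304), length and GC offsets (0.0082) and without Q140 animal 5 (0.0046) or WT animal 1 (0.0034), within -0.0389 to 0.0046 over the animals left out. Tollip turned positive with library totals (0.0370), log2 FPKM (0.0368 and 0.0355), name letters (0.0262) and without Q140 animal 1 (0.0092) or WT animal 1 (0.0014), within -0.0203 to 0.0092, and Uvrag with library totals (0.0021) and log2 FPKM at 1 (0.0000). In all, 18 of 40 members changed sign in some of the 25 alternatives, none of them called and none above 0.062 in size in the edgeR fit. At 6 animals a genotype, the 95% interval lay within ±10% for 15 of the 40. A replicate block on the number in the animal names, chosen after seeing the data, called 0 of the 40 higher and 0 lower, and 1 and 0 of all genes (1664 at an unadjusted p below 0.05). It rests on 5 animals that share 2 numbers between genotypes, and the labels do not say what a number marks. Gabarap was then at 0.1038 (adjusted p = 0.695, edgeR) and Htt at -0.3157 (0.288), Tollip reversed to 0.0274, and 6 of 40 members changed sign. Deviations from group means correlated by -0.203 to 0.106 over 3 such pairs, against -0.251 to 0.214 over 15 pairs of the same sex and other numbers.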
